A study of Mus musculus with 7 samples.

Results

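The nucleolus and MYC programme genes described here are 35 mouse genes: Myc itself, 3 metabolic enzymes that MYC is known to drive, 29 nucleolar and ribosome assembly factors, and the genes of a nuclear transport GTPase and a mitochondrial protein. They were taken as a list of symbols. No measured value entered its rule, but the list was made with earlier results of these data known. All 35 were found among the 27514 genes counted in every library. The data are 10x Chromium single-cell RNA libraries, which count unique molecular identifiers (UMIs) at the 3′ end of polyadenylated RNA, from spleen T cells of 8-week-old male C57BL/6 mice. Every sort was CD3+ NK1.1- TCRαβ+ TCRγδ-. Naive double-negative T cells (naive DNT; 2 libraries) also lacked CD4, CD8 and binding of αGal-CD1d and LPC-CD1d, reagents that mark NKT cells. Activated DNT cells (2 libraries) were such cells cultured for 3 days with IL-2 at 20 ng/ml and antibodies that engage CD3 and CD28, so activation, culture and IL-2 cannot be told apart, and a cultured control without stimulation was not analysed here. CD4+ cells, CD8+ cells and the TCRαβ+ gate that contains them (TCRab) gave 1 library each. How many mice each library came from is not given in the sources used here.

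The first naive and activated DNT libraries and the 3 single libraries used the v2 kit, whereas the second naive and activated libraries used v3. The 28101 cells kept carried 17358231 to 53653855 UMIs per library, with medians of 3987 to 7556 UMIs per cell in the 5 unstimulated libraries and 15795 and 9386 in the activated ones. Pairs of libraries shared 0 to 36 cell barcodes. Levels are given as CPM, a gene's UMIs scaled to the total of its library. Cd3d was detected at 721 to 1248 CPM in all 7 libraries, but Cd4 was at 0.204 CPM or below and Cd8a at 3.49 CPM or below in all 4 DNT libraries, against 137 CPM of Cd4 in CD4 cells and 492 CPM of Cd8a in CD8 cells. Red cell markers summed to 3697 and 819 CPM in naive replicates 1 and 2, with 0 of 5 markers at 0, and to 0 and 0.436 CPM in activated replicates 1 and 2, with 5 and 3 of 5 at 0. B cell markers summed to 26.8 and 124 CPM in the naive against 9.95 and 14.0 CPM in the activated libraries, and myeloid markers to 1918 and 233 against 159 and 223 CPM. CPM sums over the cells of a library, so it does not tell fewer expressing cells from less RNA per cell.

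Ribosomes are assembled in the nucleolus. RNA polymerase I transcribes the ribosomal RNA precursor there, small nucleolar ribonucleoproteins (snoRNPs) guide its chemical modification, and successive sets of assembly factors fold and cut it into the small and large subunits. MYC, a transcription factor that binds DNA as a dimer with MAX, is induced by antigen receptor and IL-2 signals in T cells and is known to drive these genes together with the synthesis of nucleotides and polyamines as the cells enlarge and divide.

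All 35 members had higher fitted levels in activated than in naive DNT cells. The median member was 1.48 higher on the log2 scale, a 2.79-fold difference, and the range was 0.63 to 2.64, while the median over the 12325 genes tested was -0.05. In the test of 2 against 2 libraries (edgeR's two-sided quasi-likelihood test with Benjamini-Hochberg adjustment over all genes tested), 6 of 35 members passed an adjusted p of 0.05, all of them higher: Srm, Nolc1, Noc4l, Wdr12, Nop2 and Nop16. Among all genes tested 5.32% passed as higher and 5.06% as lower. Of the 35 members 0 were called lower, also by DESeq2. With the replicate number, which is also the kit, as a block in the fit, 32 of 35 members were called higher, where 19.9% of all genes were called higher and 19.8% lower, and Odc1, Polr1a and Bop1 were not. DESeq2 without the block called 24 of 35 higher, where 9.79% of all genes were called higher and 9.26% lower. After TMM scaling, which corrects for library composition, both activated libraries lay above both naive libraries for 32 of 35 members, all but Nop10, Rrp9 and Bop1, and for 28.1% of all genes.

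The 6 calls rested on every naive library being present. With either naive library left out, none of the 6 passed. Without activated replicate 1 not all of the 6 passed, and without activated replicate 2 all 6 did. Each of these fits leaves 1 library in a group, so its number of calls is not weighed here. Over all genes, calls as higher were also fewer without naive replicate 1 or 2 and more without activated replicate 2. Counting with 1500 UMIs per cell, where the libraries no longer differ in depth per cell, left 0 calls and a member median of 1.29. Among the 9878 genes then tested 228 were called higher, against 656 of 12325 in the main fit. Leaving out cells with 1% or more of their UMIs from red cell, B cell or myeloid markers left 6 calls and a median of 1.46, a rule added after seeing the data. It gave 703 of 12221 genes called higher. The planned rule, which left out every cell with 3 or more such UMIs, left 1 call (Wdr12) and a median of 1.43, and removed 1558 of 4049 cells of naive replicate 1. With it 176 of 10992 genes were called higher. Dividing cells were more frequent in the activated libraries: after thinning, cells with a UMI of a proliferation marker such as Mki67 or Top2a were 2.17% and 3.10% of naive and 24.8% and 15.5% of activated cells. Without those cells 3 members were called and the median was 1.44, where 308 of 11668 genes were called higher. Cells without such a UMI after thinning can still be dividing.

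**Figure D1:**
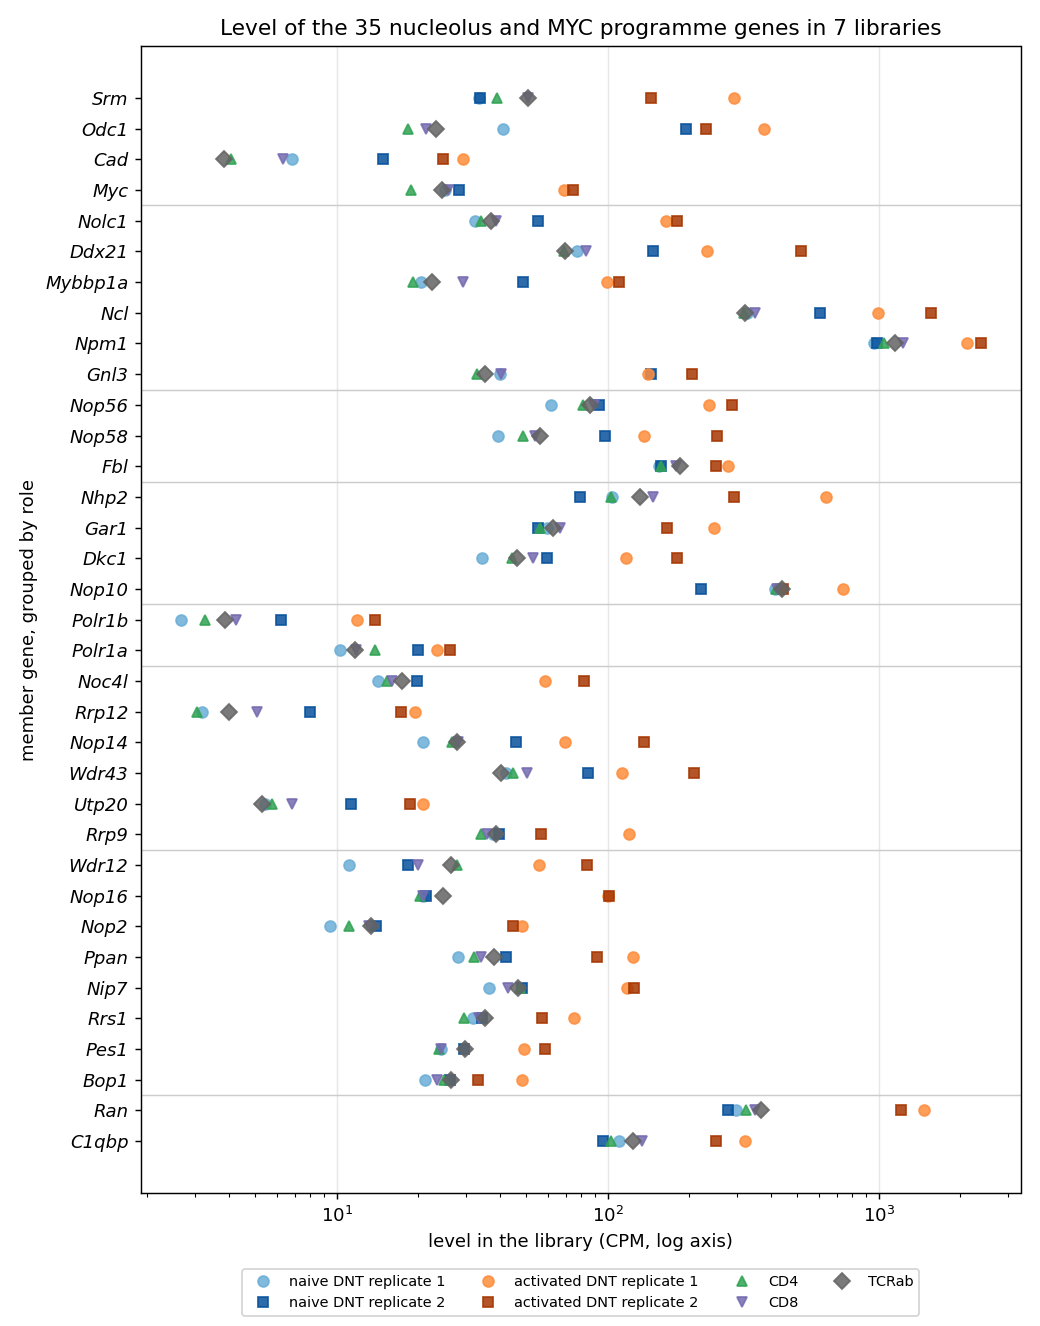
Level of each member in each of the 7 libraries, in CPM on a log axis, with members grouped by role and ordered by fold change within a role. Circles and squares in blue are the naive DNT libraries and those in orange and brown the activated ones. Triangles and diamonds are the CD4, CD8 and TCRab libraries. On this unscaled CPM the Gnl3 point of naive replicate 2 lies above that of activated replicate 1. After TMM scaling both activated libraries lay above both naive ones for 32 of 35 members and for 28.1% of all genes tested. Points should be compared along a row, not between genes.

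Promoter sequence is shown here for members with higher levels in activated cells, because the DNA word that MYC and MAX are known to bind, the E-box CACGTG, can be read from it. RefSeq promoters (GRCm38.p6, 250 bases before to 50 after the start) matched 28 members. CACGTG, which reads the same on both strands, was in 6 of these 28 (21.4%): Ran, Nop2, Utp20, Pes1, Mybbp1a and Wdr43. The share was 20.9% of 115 promoters of the related ribosome, nucleotide, polyamine and transport genes listed for this work, 11.8% of 9440 promoters of tested genes and 8.09% of all 27025. The related word CACGCG, searched on both strands (as CACGCG and CGCGTG), was in 11 of 28 (39.3%), in 27.0%, 20.2% and 10.5% of the same sets. Of the called members with a matched promoter, Nop2 held CACGTG, Nolc1 and Nop16 held CACGCG and not CACGTG, and Wdr12 and Noc4l held neither.

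The stretches below lie before the start and outside every exon annotated in GENCODE vM21, with both words in capitals and each written 5′ to 3′ on the gene's own strand. Nop2 (chr6:125131633-125131882, forward strand) is a called member with CACGTG, and Nolc1 (chr19:46075597-46075846, forward strand) one with CACGCG. Ran (chr5:129019906-129020068, forward strand) held both words, once and 5 times in its full window, of which 1 and 2 copies fall in the stretch shown. Wdr12 (chr1:60098646-60098750, reverse strand) and Nop16 (chr13:54590091-54590206, reverse strand) are called members whose stretch holds neither word, the copy in Nop16 lying 28 bases after its start.
Nop2: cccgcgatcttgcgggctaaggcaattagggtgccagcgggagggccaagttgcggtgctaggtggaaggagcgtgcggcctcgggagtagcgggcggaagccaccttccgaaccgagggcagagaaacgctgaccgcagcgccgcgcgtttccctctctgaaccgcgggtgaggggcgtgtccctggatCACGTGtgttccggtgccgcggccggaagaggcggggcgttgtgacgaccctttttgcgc
Nolc1: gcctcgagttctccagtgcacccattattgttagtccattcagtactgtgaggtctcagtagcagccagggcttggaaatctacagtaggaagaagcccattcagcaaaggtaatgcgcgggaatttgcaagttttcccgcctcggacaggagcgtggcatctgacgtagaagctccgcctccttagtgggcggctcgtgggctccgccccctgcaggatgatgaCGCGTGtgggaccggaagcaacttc
Ran: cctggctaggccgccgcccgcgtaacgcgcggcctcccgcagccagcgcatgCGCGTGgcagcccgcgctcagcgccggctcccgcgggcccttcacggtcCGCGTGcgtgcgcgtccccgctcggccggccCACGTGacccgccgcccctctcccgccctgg
Wdr12: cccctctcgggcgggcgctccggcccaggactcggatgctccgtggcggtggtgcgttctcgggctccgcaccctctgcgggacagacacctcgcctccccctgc
Nop16: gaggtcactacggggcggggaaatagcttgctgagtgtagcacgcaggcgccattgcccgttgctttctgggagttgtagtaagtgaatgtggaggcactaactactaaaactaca
In the other 4 members with CACGTG the word lay after the start, within annotated 5′ untranslated sequence: in Pes1 at chr11:3963967-3963992 (forward strand), Mybbp1a at chr11:72441357-72441376 (forward), Wdr43 at chr17:71616222-71616247 (forward) and Utp20 at chr10:88826765-88826787 (reverse). The word, in capitals, began 2, 40, 17 and 37 bases after the start in that order.
Pes1: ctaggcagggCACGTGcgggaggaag
Mybbp1a: cttctgagccCACGTGtttg
Wdr43: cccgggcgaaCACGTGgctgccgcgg
Utp20: gcactaactaCACGTGaggaaaa
A match is a description of letters, and no binding was measured.

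Myc, the transcription factor that names the programme, had 25.04 and 28.3 CPM in the naive libraries, replicate 1 first, and 69.1 and 74.4 CPM after activation. The groups did not overlap, and the ratio was alike in both kits, at 2.76 and 2.63. The log2 fold change was 1.30 ± 0.39 (SE), with an adjusted p of 0.0769 in edgeR's quasi-likelihood test and 0.00111 with the replicate block. Over the 15 alternatives tried it was called in 4, with adjusted p from 2.19e-05 to 0.346 and log2 fold changes from 1.10 to 1.52. Cells with at least 1 Myc UMI were 9.06% and 15.8% of naive and 53.3% and 31.8% of activated cells, and 3.39%, 4.27%, 9.94% and 8.41% in the same order once each cell was thinned to 1500 UMIs.

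The metabolic enzymes differed in how alike their replicates were. Srm, spermidine synthase, stood at 33.6 and 33.7 CPM in the naive libraries and at 292 and 145 CPM in the activated ones, the largest fold change of the 35 members (log2 2.64 ± 0.61). Every activated value was far above every naive one, but the activated replicates were themselves 2-fold apart. Odc1, ornithine decarboxylase, which opens the polyamine pathway upstream of Srm, stood at 41.1 and 194.7 CPM in naive and 377.9 and 230.0 CPM in activated replicates 1 and 2. Its naive replicate 2 was close to activated replicate 2, and its log2 fold change of 1.48 ± 0.69 did not pass with or without the block (edgeR adjusted p 0.212 and 0.380). Cad, the enzyme that opens pyrimidine synthesis, had a log2 fold change of 1.30 ± 0.43, with an edgeR adjusted p of 0.0995 without and 0.0162 with the block (0.00414 to 0.442 over the 15 alternatives, 4 of which called it).

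The abundant nucleolar proteins passed edgeR's test in 1 of 6 cases without the block and in 6 of 6 with it, with edgeR adjusted p from 0.0329 to 0.307 and from 0.000200 to 0.0296. Nolc1, a nucleolar phosphoprotein that chaperones snoRNPs, stood at 32.3 and 55.1 CPM in naive and 163.5 and 180.6 CPM in activated cells and passed both ways. Gnl3, the GTP-binding protein nucleostemin, stood at 40.1 and 144.0 CPM in naive and 140.3 and 204.6 CPM in activated cells, so that naive replicate 2 sat at the level of activated replicate 1. The other log2 fold changes were 1.59 for the RNA helicase Ddx21, 1.56 for Mybbp1a, 1.35 for nucleolin (Ncl), 1.05 for nucleophosmin (Npm1) and 0.89 for Gnl3. Npm1 encodes a histone chaperone and Ncl an RNA-binding protein. In replicate 1, Npm1 was seen in 93.3% of naive and 99.9% of activated cells, and Ncl in 69.2% and 98.4%. In replicate 2 the shares were 97.5% and 96.1% for Npm1 and 94.9% and 94.3% for Ncl, slightly lower after activation. With each cell thinned to the same depth, Npm1 was seen in 72.5% and 73.0% of naive and 91.7% and 84.5% of activated cells. Ncl was then seen in 36.7% and 57.2% against 66.8% and 68.5%.

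Of the snoRNP proteins, 0 of 7 passed edgeR's test without the block and all 7 with it, while DESeq2 without the block called 2 of 3 box C/D and 3 of 4 H/ACA genes. Box C/D snoRNPs, which methylate ribosomal RNA, hold Nop56, Nop58 and the methyltransferase fibrillarin (Fbl). Nop56 stood at 61.6 and 92.9 CPM in naive and 236.0 and 287.0 CPM in activated cells, a log2 fold change of 1.65, with 1.42 for Nop58. Fbl, at 154.9 and 157.7 against 276.8 and 250.7 CPM, had the smallest log2 fold change of all 35 members (0.63 ± 0.48). The groups did not overlap for any of the 3 genes, and the difference in fold change between Nop56 and Fbl was not tested.

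H/ACA snoRNPs, which convert uridine to pseudouridine, hold dyskerin (Dkc1), Nhp2, Nop10 and Gar1. Nhp2 stood at 103.7 and 79.2 CPM in naive and 639.4 and 291.4 CPM in activated cells, a log2 fold change of 2.26 ± 0.69. Nop10 stood at 414.5 and 220.1 against 736.1 and 443.0 CPM, 0.73 ± 0.68, and its activated replicate 2 was only slightly above its naive replicate 1. Gar1 and Dkc1 lay between them, at 1.74 and 1.54. The block values of the 4 genes had edgeR adjusted p of 0.0159 or less, against 0.0502 to 0.540 without it.

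The polymerase I subunits had log2 fold changes of 0.65 and 1.48. Polr1a, which encodes the largest subunit of the enzyme, stood at 10.3 and 20.0 CPM in naive and 23.5 and 26.2 CPM in activated cells, and its change (0.65 ± 0.38) was called under 0 of the 15 alternatives, with adjusted p from 0.0748 to 0.831. Polr1b, the subunit that forms the active site with it, stood at 2.67 and 6.21 against 11.9 and 13.8 CPM, 1.48 ± 0.43, with an edgeR adjusted p of 0.0701 without and 0.00593 with the block (0.00231 to 0.287 over the 15 alternatives, 4 of which called it). Both genes were low, with a UMI in 1.14% to 30.9% of cells in the 4 libraries.

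Small subunit assembly factors passed edgeR's test in 1 of 6 cases without the block and in all 6 with it, and DESeq2 without the block called 4. Noc4l, which acts with Nop14, stood at 14.2 and 19.8 CPM in naive and 58.8 and 81.9 CPM in activated cells (log2 1.91 ± 0.37), and the ratio was 4.14 in kit v2 and 4.13 in kit v3. Rrp9 was at 37.7 and 39.9 against 119.6 and 56.6 CPM (1.13 ± 0.56), where only activated replicate 1 stood far above the naive libraries. Rrp12, Nop14, Wdr43 and Utp20, which bind the precursor of the small subunit RNA, had log2 fold changes of 1.71, 1.51, 1.22 and 1.21.

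Large subunit assembly held 3 of the 6 calls. Wdr12 stood at 11.1 and 18.3 CPM in naive and 55.8 and 84.0 CPM in activated cells (log2 2.13 ± 0.37). Nop16 stood at 20.8 and 21.3 against 100.1 and 101.1 CPM (2.12 ± 0.42), and Nop2, an RNA methyltransferase, at 9.45 and 14.0 against 48.3 and 44.7 CPM (1.91 ± 0.40). In all 3 the lower activated library was more than 3 times the higher naive one. The PeBoW complex joins Wdr12 with Pes1 and Bop1, yet Pes1 and Bop1 had log2 fold changes of 0.87 and 0.72. Bop1, at 21.3 and 26.2 against 48.5 and 33.3 CPM, was called under 0 of 15 alternatives (adjusted p 0.0755 to 0.948), while Wdr12 was called under 11 (2.81e-12 to 0.0978). Ppan, Nip7 and Rrs1 had log2 fold changes of 1.57, 1.41 and 0.90.

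Ran, the GTPase that sets the direction of nuclear transport and carries ribosomal subunits out of the nucleus with exportins, stood at 298.5 and 279.0 CPM in naive and 1472.0 and 1203.7 CPM in activated cells (log2 2.08 ± 0.57). C1qbp, a mitochondrial matrix protein, stood at 110.3 and 96.4 against 322.1 and 251.6 CPM (1.34 ± 0.52). The groups did not overlap, and after TMM scaling they still did not, although replicates then stood further apart, at 383 and 239 against 1667 and 969 CPM for Ran and 141 and 82.7 against 365 and 203 CPM for C1qbp. In edgeR both passed with the block (adjusted p 0.00101 or less) and not without it (0.0618 and 0.147); DESeq2 called both without it.

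**Figure D2:**
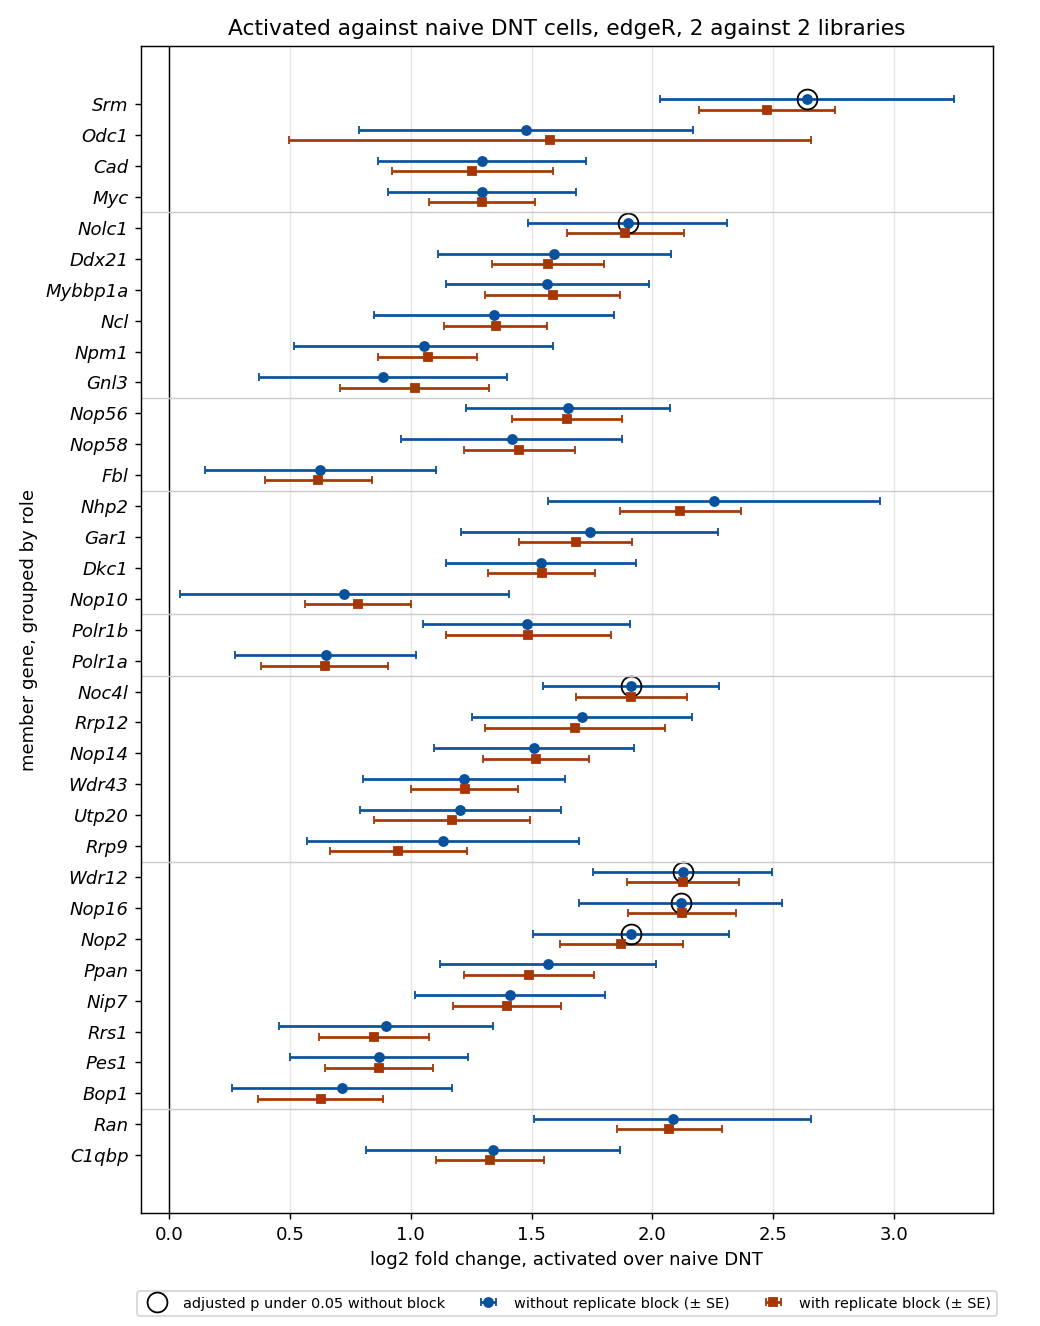
Log2 fold change of each member in activated over naive DNT cells with its standard error, without (circles) and with (squares) the replicate number as a block. All 35 estimates lie above 0, between 0.63 (Fbl) and 2.64 (Srm) without the block; the rings mark the 6 members with an adjusted p under 0.05 without it.

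The kits gave the same direction and different sizes. Within kit v2 the activated library had more CPM than the naive one for 35 of 35 members, with a median ratio of 3.50. Within kit v3 it was again 35 of 35, with a median of 2.58. After TMM scaling 35 of 35 members were still higher within both kits, as were 39.2% of all genes tested on that scale. The ratio was larger in kit v2 for 32 of 35 members (28 after TMM scaling), and for 25 of 35 (29 after TMM scaling) the ratios of the kits were within 2-fold of each other. Odc1 differed most, with ratios of 9.18 and 1.18, followed by Rrp12 (6.13 and 2.16), Cad (4.28 and 1.66) and Gnl3 (3.50 and 1.42). For these 4 genes naive replicate 2 held more CPM than naive replicate 1, as it did for every other member but Nhp2, Nop10, Gar1, Ran and C1qbp. Across the 35 members the log2 ratios of the kits correlated with r = 0.37, a description over genes that share the same 4 libraries. The replicate number stands for kit and for any other difference between the replicates, and these cannot be told apart.

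**Figure D3:**
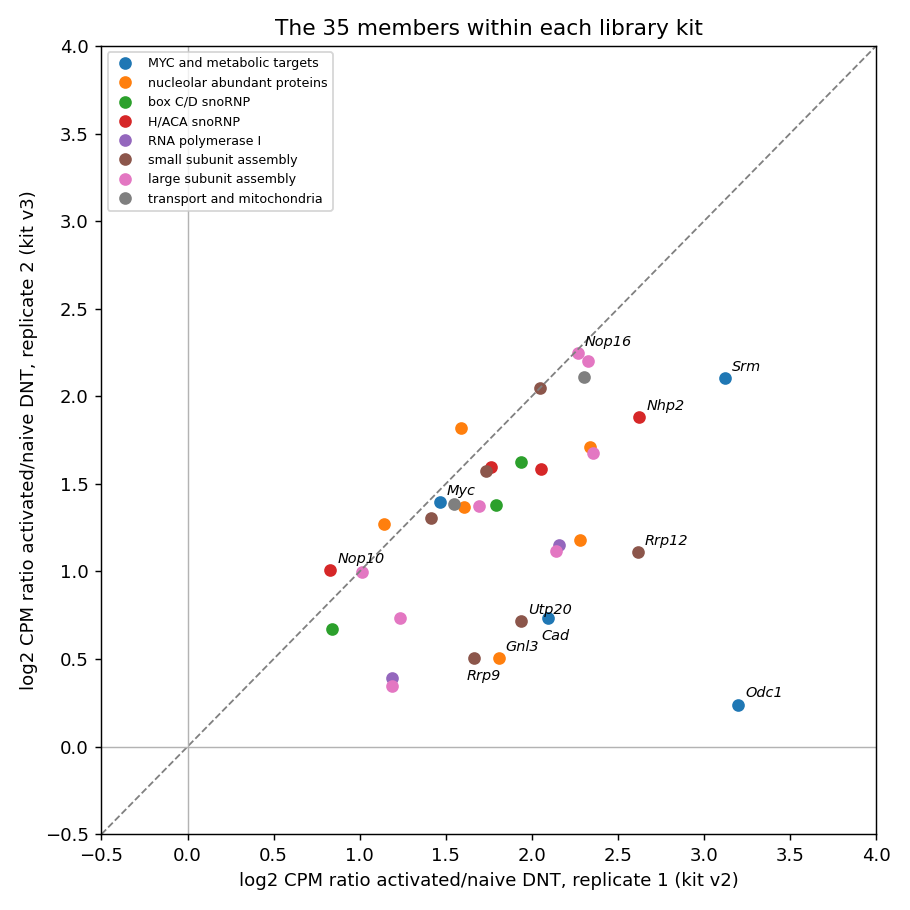
Log2 CPM ratio of activated over naive DNT in replicate 1 (kit v2, horizontal axis) and replicate 2 (kit v3, vertical axis), 1 point per member, coloured by role, with the dashed line marking equal ratios. All 35 points lie above 0 on both axes and 32 lie to the right of the line; Odc1, at ratios of 9.18 and 1.18, is the farthest from it.

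Counted per cell, the members stood further apart than all UMIs did. Their summed level was 3158 and 3865 CPM in naive and 9748 and 9908 CPM in activated replicates 1 and 2. In UMIs per cell the sum was 13.5 and 30.6 against 187 and 161, a ratio of 13.9 in kit v2 and 5.26 in kit v3, while all UMIs per cell were 4.50-fold and 2.05-fold higher. These ratios were not tested, since each kit has 1 library per group.

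The genes around the members were described with lists of the same processes, members left out. Of 39 other small subunit factors tested, 2 were called by edgeR as higher and 0 lower without the block and 21 and 0 with it, with a median log2 fold change of 0.68. The 2 were Nol10 (1.80 ± 0.40) and Pno1 (1.70 ± 0.42). Of 40 other large subunit factors, 1 was called higher, Rrp1b (1.95 ± 0.38), and with the block 26 higher and 1 lower (Nop53, -0.95), with a median of 0.88. Of 11 other snoRNP proteins and assembly factors edgeR called 0 without and 8 with the block, and DESeq2 4 without it, with a median of 1.15. Of 13 other polymerase I genes the counts were 0, 3 and 1, with a median of 0.23. For these lists and those below, edgeR called 5.32% of all genes tested higher without the block and 19.9% with it. DESeq2 without the block called 9.79% higher. The unblocked edgeR counts of both subunit lists, and all counts of the polymerase I list, stood near or below these shares. Differences between the lists and all genes were not tested.

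Nucleotide synthesis had 3 of 14 genes called higher and 0 lower, 10 with the block, and a median of 0.86. The 2 largest changes were those of Ctps, which makes CTP (log2 2.09 ± 0.37), and Ppat, which opens purine synthesis (1.97 ± 0.44). Ran transport genes had 2 of 11, 10 with the block, and a median of 1.06: Rcc1, the exchange factor that loads Ran with GTP, rose by 2.58 ± 0.44 and the import receptor Ipo5 by 1.86 ± 0.40. Of 10 polyamine and hypusine genes other than Srm and Odc1, edgeR called 0 without and 3 with the block, and DESeq2 2 without it, with a median of 0.48. The medians of these 7 lists, from 0.23 to 1.15, stood below the 1.48 of the members and above the -0.05 of all genes tested.

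The MYC network was mixed. Max, the partner of MYC, stood at 73.9 and 78.4 in naive and 82.0 and 74.3 in activated cells. The MXD proteins compete with MYC for MAX. Mxd3 was called higher (log2 2.84 ± 0.48, from 1.04 and 1.07 to 6.93 and 9.95 CPM) and was the 1 of 14 network genes that edgeR called without the block; DESeq2 without the block also called Mxd1 and Mxd4 lower. With the block in edgeR Mxd1 (-1.57), Mxd4 (-1.19) and Mnt (-1.13) were called lower. Mxd4, for example, stood at 48.9 and 84.0 CPM in naive and 22.5 and 42.4 CPM in activated cells. Mxi1 had a log2 fold change of 0.08 ± 0.68, and Mycn, at 0.174 and 1.33 against 1.72 and 3.25 CPM, one of 1.63 ± 0.78 (edgeR adjusted p 0.220 without and 0.0308 with the block; 0.104 to 0.498 with 1 library left out). In all, the block fit called 2 of 14 network genes higher and 5 lower, where 19.9% of all genes were called higher and 19.8% lower.

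Among unstimulated cells the members were nearly level in sum, but not gene by gene. They summed to 3158 and 3865 CPM in naive DNT replicates 1 and 2 and to 3298, 3742 and 3630 CPM in CD4, CD8 and TCRab cells. These 3 groups have 1 library each and no test was made, so a member was counted as different only where it was at least 2-fold apart from both naive libraries, with 20 CPM or more on the higher side, a level that 28 members reached. Against CD4, 1 member met this, Odc1, higher in naive DNT, where 5.51% of all genes that could meet the rule were higher and 1.34% lower. TMM scaling over the 7 libraries ended that call and left Wdr12 as the 1 member apart from CD4, lower in naive DNT. Against CD8 and against TCRab 0 of 28 did, where 4.87% and 4.16% of genes were higher and 0.532% and 1.18% lower. Within kit v2, naive replicate 1 had median member ratios of 0.95, 0.85 and 0.84 to CD4, CD8 and TCRab. Counting intervals lay below 1 for 12, 22 and 20 members and above 1 for 6, 1 and 4. Across kits, naive replicate 2 had median member ratios of 1.29, 1.13 and 1.11. Its intervals lay below 1 for 7, 8 and 10 members and above 1 for 23, 21 and 19. The medians over all genes at 20 CPM or more were 1.03, 1.12 and 0.98 for replicate 1 and 1.51, 1.63 and 1.43 for replicate 2. The naive DNT libraries are the same as in the activation comparison.

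Odc1 stood at 18.4, 21.4 and 23.2 CPM in CD4, CD8 and TCRab cells. Naive replicate 1 was 2.24 times the CD4 level (95% interval 1.98 to 2.54, counting error only) and naive replicate 2 was 10.6 times it (9.59 to 11.7). Gnl3 had the same split, at 1.22 and 4.38 times CD4, so that it passed 2-fold against naive replicate 2 alone. Wdr12 went the other way: 27.7, 20.0 and 26.5 CPM in CD4, CD8 and TCRab against 11.1 and 18.3 CPM in naive DNT, or 0.40 and 0.66 of the CD4 level. Srm was 33.6 and 33.7 CPM in naive DNT against 39.0, 51.0 and 50.7 CPM. Myc was close in all of them, at 25.04 and 28.3 against 18.8, 25.8 and 24.5 CPM, and below both activated libraries.

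The CD8 library held slightly more of the members than the CD4 library. The ratio was above 1 for 31 of 35 members with a median of 1.13, while the median over all genes at that level was 0.91. Counting intervals lay above 1 for 21 members and below 1 for 3, and 0 members were 2-fold apart. The largest ratio was that of Rrp12 (1.67) and the smallest that of Wdr12 (0.72). Neither group was replicated, so the spread between libraries is unknown here.

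Detection per cell followed depth as well as level. The median member had a UMI in 12.9% and 29.2% of naive and 71.2% and 53.5% of activated cells, and in 12.5%, 16.4% and 13.7% of CD4, CD8 and TCRab cells. With every cell thinned to 1500 UMIs, which left out 43, 80, 0 and 75 cells of the DNT libraries in that order, the shares were 4.69% and 6.92% against 14.4% and 13.7%, and 4.66%, 5.21% and 5.31%. Thinned, Srm was seen in 4.37% and 4.48% of naive and 28.5% and 10.9% of activated cells, and Ran in 34.8% and 32.7% against 81.6% and 59.0%. Both activated libraries stood above the other 5 before and after thinning.

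The members together took a median of 0.267% and 0.333% of the UMIs of a thinned naive cell and 0.867% and 0.533% of those of an activated cell. CD4, CD8 and TCRab cells stood at 0.267%, 0.333% and 0.333%. Within kit v2, 0.774% of naive cells reached the median of the activated cells, and 0.861%, 1.83% and 1.27% of CD4, CD8 and TCRab cells did. Within kit v3, 22.6% of naive cells did. The 25th to 75th percentile of activated replicate 2 reached from 0.333% to 1.07%, wider than the 0.600% to 1.20% of activated replicate 1, and its lower edge was the median of naive replicate 2.

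**Figure D4:**
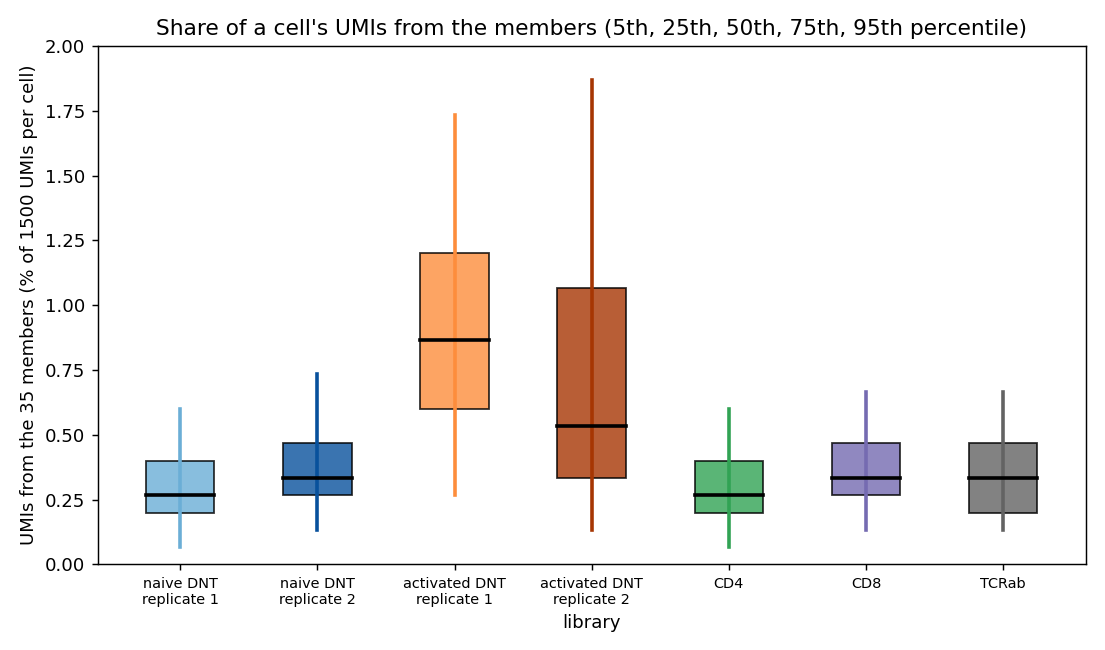
Share of each cell's UMIs that came from the 35 members, after thinning every cell to 1500 UMIs, by library: the box spans the 25th to 75th percentile of cells, the black line is the median and the vertical line spans the 5th to 95th percentile. The activated medians of 0.867% and 0.533% stand above the 0.267% to 0.333% of the other 5 libraries, and the box of activated replicate 2 starts at the median of naive replicate 2.

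Within the activated libraries the share was larger in deeper cells, a split that was chosen after values had been seen. In 4 bins of equal cell number, from the shallowest to the deepest, it was 0.675%, 0.904%, 1.05% and 1.03% in replicate 1 and 0.456%, 0.636%, 0.741% and 1.13% in replicate 2, each after thinning to the same 1500 UMIs. In naive replicate 2 the bins ran from 0.357% to 0.405%. Other genes moved with the bins of activated replicate 2: thinned cells with Klf2, a quiescence factor, went from 51.2% to 2.45%, those with Gzmb, granzyme B, from 16.8% to 61.1%, and cells with a proliferation UMI from 5.69% to 44.8%. In activated replicate 1, from shallow to deep, those with Gzmb were 30.1%, 54.0%, 68.3% and 52.1%, those with Klf2 went from 12.9% to 1.12%, and those with a proliferation UMI from 5.13% to 54.6%. Their part in the member share was not tested.

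**Figure D5:**
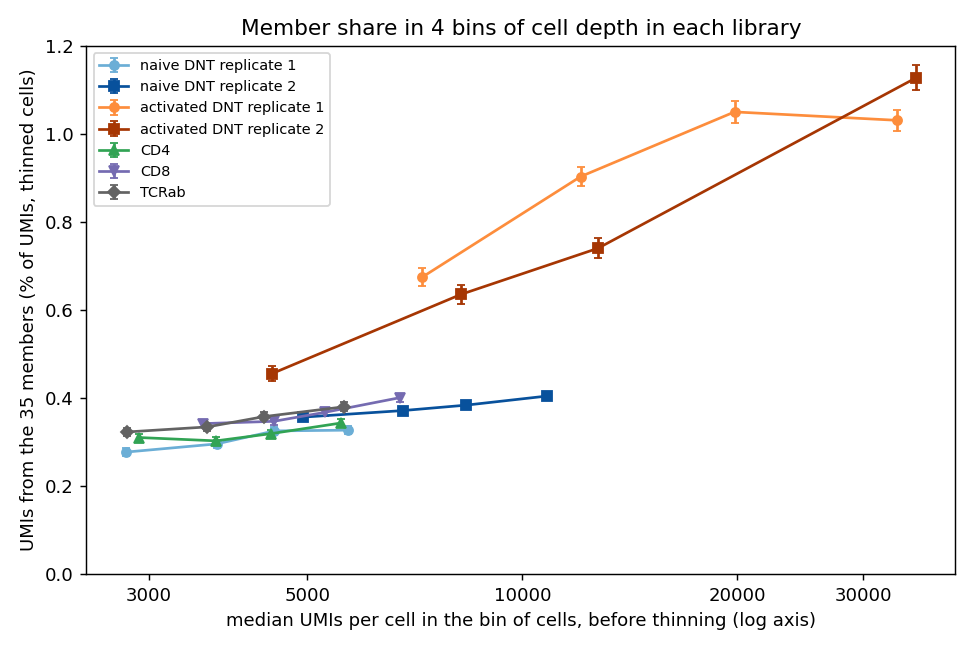
Share of UMIs from the 35 members (thinned cells, with 95% exact binomial intervals for counting error) against the median UMIs per cell before thinning, in 4 bins of equal cell number ordered by depth, for each library; the horizontal axis is logarithmic. The lines of the activated libraries climb from 0.675% and 0.456% to 1.03% and 1.13%, and those of the 5 unstimulated libraries stay at or below 0.405%.

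Cells with a proliferation marker UMI held more of the members in both activated libraries. The member share was 1.02% in cells with such a UMI and 0.880% in the others of activated replicate 1, and 1.02% and 0.689% in replicate 2. Without such a UMI it was 0.307% and 0.379% in naive replicates 1 and 2. Before thinning, activated cells with such a UMI were deeper: a median of 26001.5 against 12843 UMIs in replicate 1 and 39498 against 8921 in replicate 2. The part of depth in the member share was not tested. The split depends on depth: thinned to 3000 UMIs, 585 cells of activated replicate 1 and 319 of replicate 2 had one, against 444 and 229 at 1500, so the other cells include dividing ones. The ratio of a member's level in cells with such a UMI to that in the others had a median of 1.18 in activated replicate 1 and 1.37 in replicate 2. Both counting intervals lay above 1 for Srm, Odc1, Ncl, Nolc1, Nhp2, Gar1 and Ran, while some other members had a ratio below 1 in 1 of the libraries. The same ratios over all genes are not given here, so a difference of the members from other genes was not tested. In activated replicate 1 the interval of 1 member lay below 1, C1qbp at 0.83 (0.70 to 0.98), whose ratio in replicate 2 was 1.75 (1.36 to 2.22). Ran had ratios of 1.32 and 2.18. Myc itself had ratios of 0.72 (0.50 to 1.02) and 1.11 (0.69 to 1.71). Cells with a Myc UMI after thinning held more of the 34 other members than cells without one in both activated libraries, 1.02% against 0.895% and 1.09% against 0.701%, and slightly more in the naive libraries, 0.329% against 0.304% and 0.395% against 0.376%. Cells of 1 library are not replicates, so these shares carry no test between conditions.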

How the data were processed

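The matrices that the authors deposited list whole UMI counts for each gene in each cell barcode, not normalized; the submitters' processing notes name Cell Ranger 2.1.0 and 3.0.1 and the GRCm38 build, and the kit v3 matrix headers name software 3.0.2. The 27514 gene IDs common to both references were used. Kept cells had 200 or more genes and no more than 10% mitochondrial UMIs: 4049 and 6728 naive DNT, 1791 and 1549 activated DNT, 5035 CD4, 4655 CD8 and 4294 TCRab cells. Doublets were not removed. The members, the lists and the rules for naming genes were chosen with earlier results of these data known.

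UMI counts were summed per library. Activated and naive DNT were compared, 2 against 2, with edgeR 4.0.16 in R 4.3.3 (filterByExpr, TMM, robust quasi-likelihood F test, 2 residual degrees of freedom, Benjamini-Hochberg threshold 0.05). The labels give each replicate number 1 kit in both groups, and libraries with the same number deviated together from their groups' means, with r = 0.64 across 12325 genes, so the number pairs the libraries; the blocked fit, with 1 residual degree of freedom, is given beside the unblocked one. Standard errors of edgeR fold changes were derived from the test, as the absolute log2 fold change divided by the square root of F. Their median over members was 0.44 without and 0.23 with the block. Alternatives were DESeq2 1.42.0, RLE scaling or none, no filter, 1 library left out, thinning to 1500 UMIs (seed 1), all barcodes, and cells with other-lineage or dividing-cell UMIs left out; 2 rules, on 1% of UMIs and DESeq2 with the block, were added after seeing the data. The unblocked edgeR fit and the 2-fold rule were tested on simulated data with no kit or replicate effect. The blocked fit and DESeq2 were not tested in this way. Groups with 1 library were compared by CPM without a test. Intervals are exact (Clopper-Pearson or conditional binomial, 95%) and cover counting error only. Every member is named; CPM per DNT library is given for Myc, and in each role for the largest, the smallest and every called fold change. Of the related lists the 2 largest called changes in each direction are named, and Max, Mxd1, Mxd4, Mxi1, Mnt and Mycn whatever their values. Promoters are RefSeq's, coordinates GENCODE vM21, both on GRCm38. Riok2, Tcrg-C1 and Trdc had no match among the genes used, and Mycl did not pass the filter.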

Additional observations from a re-analysis of the deposited data

How the results depend on the processing

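The direction held for all 35 members under all 15 alternatives, the smallest log2 fold change being 0.02 (Nop10), and the member median stayed between 1.26 and 1.64; the count of calls did not hold. Against the 6 members called higher, there were 32 with the replicate block, 24 with DESeq2, 33 with DESeq2 and the block, 19 with no filter on low counts (18195 genes tested), 0 with library size only as scaling, 0 with cells thinned to 1500 UMIs, 1 (Wdr12) with cells of 3 or more other-lineage UMIs left out, and 3 with only cells that had no dividing-cell UMI; leaving out 1 library gave 0 to 14. Over all genes, 656 were called higher in the main fit, 2458 with the block, 1207 with DESeq2 and 2174 with DESeq2 and the block. The number was 1083 with no filter, 228 thinned, 176 without cells of 3 or more other-lineage UMIs and 308 without dividing-cell UMIs. The replicate block ended none of the 6 calls. The cause of these moves was not tested. Library size only shifted the median of all genes from -0.05 to 0.08 and gave 53 calls higher and 12 lower over all genes, against 656 and 624. Calls lower stayed at 0 of 35 throughout.

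For naive DNT against CD4, TMM scaling over the 7 libraries gave 0 members higher and 1 lower (Wdr12), and a 1.5-fold rule 1 lower (Wdr12). Against CD8 and TCRab the 1.5-fold rule gave 1 higher (Odc1) and 1 lower (Srm) each, and TMM scaling 1 lower (Wdr12) for TCRab. Over all genes the 1.5-fold rule gave 423 higher and 125 lower of 4031 for CD4. It gave 458 and 53 of 3944 for CD8, and 353 and 125 of 4082 for TCRab. TMM scaling gave 156 and 110 of 4377 for CD4 and 127 and 86 of 4351 for TCRab. Without naive replicate 1, 5, 2 and 5 of the 29 members that could meet the rule were higher than CD4, CD8 and TCRab. Over all genes 1908 of 5377, 2040 of 5333 and 1824 of 5411 were higher. Without naive replicate 2, 1, 0 and 0 of 28 members were higher, and 269 of 4095, 243 of 4015 and 215 of 4130 genes. Members lower were 0, 0 and 1 (Nop10) without naive replicate 1. Without naive replicate 2 they were 1 (Wdr12), 0 and 1 (Wdr12). Genes lower were 142, 103 and 146 without naive replicate 1 and 84, 37 and 74 without naive replicate 2. The median shares of cells with a UMI were 4.69%, 6.92%, 14.4%, 13.7%, 4.66%, 5.21% and 5.31% with thinning, in the order naive, activated, CD4, CD8 and TCRab. With 3000 UMIs per cell in place of 1500 the member share moved beyond its interval to 0.316% in cells of naive replicate 1 without a dividing-cell UMI, and to 0.980%, 0.964% and 0.388% in cells with one of activated replicates 1 and 2 and of CD8.

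Each DNT group had 2 libraries, kit and replicate cannot be told apart, and CD4, CD8 and TCRab had 1 library each, so no comparison with them was tested. Members with few UMIs, such as Polr1b and Rrp12, are also limited by counting error.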
